A study of Mus musculus with 3 samples.

Results

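Dendritic cell II is 1 of 20 classes that the authors assigned to single cells of the mouse ovary. It held 75 of the 14353 deposited cells, taken here by the authors' class label alone. The sister class, Dendritic cell I, held 436 cells. The count tables put Dendritic cell II with plasmacytoid dendritic cells: it carried a plasmacytoid marker list, and most conventional dendritic markers were lower in it than in Dendritic cell I.

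Ovaries of female C57BL/6 mice were compared after metformin, with age and in youth, and single cells were profiled by droplet 3′ RNA sequencing. The metformin mice were in a prevention arm and drank 350 mg/kg/day for 6 months, starting at 14 months of age. The aged mice were untreated, and the sources used here do not give the age at which their cells were taken. The young mice were untreated and 3 months old. Each arm had 5 mice, and the left ovaries of 3 of them were joined into 1 suspension before any cell was labelled. Ovaries were dissociated with enzymes, strained so that oocytes were lost, cleared of red cells and flow-sorted through a gate that is not given. Each suspension received 1 lipid-anchored DNA tag (MULTI-seq), and the tagged suspensions were mixed and loaded as 3 pools, A, B and C. A condition was therefore 1 biological sample measured in 3 technical pools, so no test between conditions was possible and no p-value is given. All intervals are exact 95% intervals and cover counting error only, not the spread between mice.

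The whole data set held 3754 metformin, 2979 aged and 7620 young cells, with medians of 2752, 3034 and 5277.5 unique molecular identifiers (UMIs, counted RNA molecules) per cell. Dendritic cell II held 335990 UMIs, with a median of 4185 per cell and a range of 717 to 11696. Its medians in metformin, aged and young cells were 4166, 3847 and 4369.5, so depth within the class was close across conditions. The median for Dendritic cell I was 6293. The median mitochondrial share of UMIs was 3.55% in Dendritic cell II and 1.49% in Dendritic cell I. Across the data set 26 cell barcodes occurred in more than 1 pool, and 0 of them belonged to a Dendritic cell II cell.

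Plasmacytoid dendritic cells are a circulating and lymphoid-organ cell type known for making large amounts of type I interferon when Toll-like receptors in their endosomes meet viral nucleic acid. Their identity depends on the E protein Tcf4 (E2-2), which binds E-box DNA, and is opposed by Id2, which drives the conventional dendritic fate. Conventional dendritic cells instead take up antigen, raise MHC class II and costimulatory proteins and migrate to lymph nodes to prime T cells.

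Promoter sequence is shown for 4 of the genes that most set the class apart, since the plasmacytoid program is known to depend on an E-box factor. The 4 were chosen after their values were seen. Each is the 250 bases before the annotated gene start from RefSeq on GRCm38.p6, plus strand, and capitals mark the E-box CAGGTG or its reverse complement CACCTG. Siglech lies at chr7:55767934-55768183, Ccr9 at chr9:123766961-123767210, Klk1 at chr7:44225110-44225359 and Klk1b27 at chr7:44052040-44052289.

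Siglech: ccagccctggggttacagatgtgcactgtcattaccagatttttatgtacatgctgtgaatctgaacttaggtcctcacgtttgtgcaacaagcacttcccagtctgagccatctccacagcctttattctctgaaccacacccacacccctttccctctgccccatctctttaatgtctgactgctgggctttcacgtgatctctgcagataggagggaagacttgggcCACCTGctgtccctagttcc
Ccr9: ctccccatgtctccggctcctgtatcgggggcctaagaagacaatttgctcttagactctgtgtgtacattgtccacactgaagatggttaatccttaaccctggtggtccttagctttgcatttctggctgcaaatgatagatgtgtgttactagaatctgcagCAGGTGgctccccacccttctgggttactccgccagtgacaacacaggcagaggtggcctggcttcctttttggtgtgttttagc
Klk1: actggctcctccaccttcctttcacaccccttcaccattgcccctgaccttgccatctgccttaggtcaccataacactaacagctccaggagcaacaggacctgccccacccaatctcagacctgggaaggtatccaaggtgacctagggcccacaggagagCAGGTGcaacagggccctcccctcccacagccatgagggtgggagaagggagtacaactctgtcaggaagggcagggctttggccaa
Klk1b27: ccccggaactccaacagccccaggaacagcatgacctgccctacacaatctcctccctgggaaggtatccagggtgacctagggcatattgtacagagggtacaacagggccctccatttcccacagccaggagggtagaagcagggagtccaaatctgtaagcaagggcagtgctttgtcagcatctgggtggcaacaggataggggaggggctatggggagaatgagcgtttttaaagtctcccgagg

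The box began at position -20 from the gene start of Siglech, at -85 for Ccr9 and at -87 for Klk1, and the Klk1b27 window held none of these letters. Of the 20 genes named below as higher in Dendritic cell II, 12 had an entry in the RefSeq promoter table, and 6 of those 12 (50%) held the box on either strand. The same box stood in 4620 of 27025 windows of this length in the table (17.1%). The general E-box core CANNTG, with N any base, was in 11 of the 12 and in 66.0% of all windows. The 20 genes were picked by their level in these same data. The matches describe letters in a window and were not tied to binding. Cox6a2 and Ly6d had no entry.

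The plasmacytoid list of 22 genes was drawn up together with lists for the other dendritic subsets, with earlier results of these data known. A gene was compared where both classes together held at least 20 UMIs, and was called past the fold where the log2 ratio of CPM (the UMIs of a gene scaled to 1000000 UMIs of its class or condition), with 1 UMI added to each sum, was at least 1 in size. Of the 22 plasmacytoid genes, 21 met the minimum and 21 of those 21 were past the fold higher in Dendritic cell II, with a median log2 ratio of 6.02. Among all 8128 genes compared, 21.5% were past the fold higher and 11.7% lower, with a median log2 ratio of 0.34. How the authors made the classes is not stated, and the genes compared may have entered it, so the difference is a description and not a test. The remaining gene, Tlr9, had 1 UMI in Dendritic cell II and 4 UMIs in Dendritic cell I.

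The defining surface receptor was Siglech, a sialic acid-binding lectin that marks mouse plasmacytoid cells. It had 2607 CPM in Dendritic cell II and 3.12 CPM in Dendritic cell I, a log2 ratio of 9.71 (8.78 to 10.84). By pool, Siglech stood at 3046, 2621 and 3193 CPM in metformin cells, at 2883, 1654 and 2377 CPM in aged cells and at 2477, 2111 and 2850 CPM in young cells. All 9 values lay far above Dendritic cell I, whose highest was 11.6 CPM. A Siglech UMI was found in 74 of 75 Dendritic cell II cells (98.7%), against 8 of 436 Dendritic cell I cells (1.83%) and 0.0684% of fibroblasts, which should lack the gene and had a median depth of 4043 UMIs. With each cell thinned to 1000 UMIs, the Siglech shares were 89.2% of 74 Dendritic cell II cells and 0.699% of 429 Dendritic cell I cells. The 75 cells held 88.3% of all Siglech UMIs in the data set.

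Several genes had most of their UMIs, over all 20 classes, in these cells. Cox6a2, the cytochrome c oxidase subunit isoform known from heart and skeletal muscle, had 778 UMIs in 67 Dendritic cell II cells and 0 UMIs in Dendritic cell I. It was at least 2227-fold higher, with the floor for a count of 0 set at 3 UMIs over the group, and the class held 86.3% of its UMIs in all cells. Klk1, tissue kallikrein, a secreted serine protease, had 389 UMIs in 57 cells and 0 in Dendritic cell I (at least 1114-fold higher). The class held 81.4% of Klk1 UMIs, and the surface epithelium class (OSE) had 221 CPM beside 1158 CPM in Dendritic cell II. Klk1b27, of the same protease cluster, had 124 UMIs and 0 (at least 355-fold higher). Kallikrein genes lie in a family of close copies that can divide reads, so the level of either gene is uncertain. Dntt, the terminal transferase that adds bases to antigen receptor joints, had 51 UMIs in 30 Dendritic cell II cells and 0 in Dendritic cell I (at least 146-fold higher). Ccr9, the receptor for the gut and thymus chemokine Ccl25, had 839 CPM against 3.81 CPM in Dendritic cell I (log2 ratio 7.78, 6.92 to 8.80), and 78.3% of its UMIs were in the class, with 24.4 CPM in the class T cell/ILC.

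Other members of the list were shared with further classes. Ly6d, a surface protein of lymphoid progenitors and B cells, had 2622 CPM in Dendritic cell II and 0.693 CPM in Dendritic cell I, yet stood at 2518 CPM in the class B cell I. Tcf4 had 1414 CPM in Dendritic cell II and 69.7 CPM in Dendritic cell I (log2 ratio 4.34, 4.10 to 4.59), and 1196 CPM in vascular endothelium. Bst2 (tetherin), which holds budding virus at the cell surface, had 4185 CPM and 160 CPM (log2 ratio 4.71, 4.55 to 4.86), and a UMI of it was in 75 of 75 Dendritic cell II cells but also in 60.5% of fibroblasts. The summed list separated the class more sharply than these single genes: it came to 20676 CPM in Dendritic cell II, 3392 CPM in B cell I, the next highest class, and 367 CPM in Dendritic cell I.

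**Figure D1:**
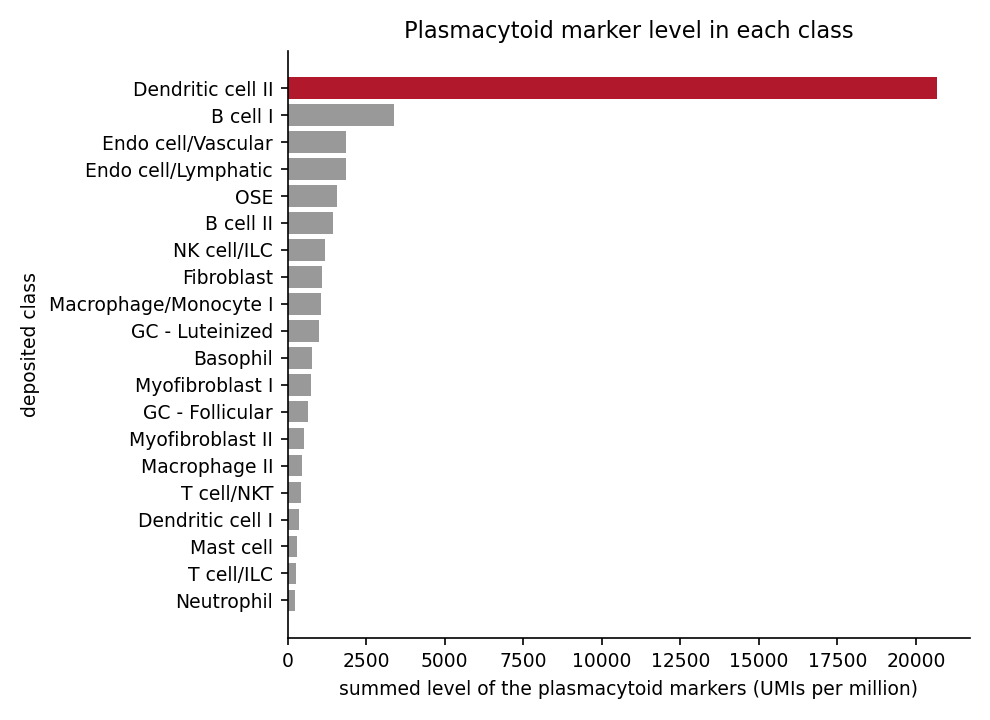
Summed level of the 22 plasmacytoid markers in CPM (x axis) for each of the 20 deposited classes (y axis), 1 bar per class with all conditions together. Dendritic cell II reached 20676, B cell I 3392 and Dendritic cell I 367.

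The marker set was carried cell by cell. Dendritic cell II cells had UMIs of 7 to 20 of the 22 markers, with a median of 17, against a median of 1 and at most 8 in Dendritic cell I. At least 8 markers were found in 74 of the 75 cells, and in 5 cells of all other classes together: 2 in Macrophage/Monocyte I and 1 each in B cell I, B cell II and Dendritic cell I. The list was higher within each condition too, with 19 of 19 compared genes past the fold higher in metformin cells, 11 of 11 in aged cells and 21 of 21 in young cells. Over all genes the shares past the fold higher within those conditions were 20%, 19.7% and 22.4%.

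Transcription factors divided along the same line. Runx2, which controls the exit of plasmacytoid cells from bone marrow, was higher by a log2 ratio of 6.61 (5.91 to 7.39), and Spib, an Ets-family factor, by 4.76 (4.0 to 5.59). Irf8, needed for several dendritic lineages, had 2771 CPM in Dendritic cell II and 623 CPM in Dendritic cell I, and Irf7, the factor that switches on type I interferon genes, had 185 and 46.1 CPM (log2 ratio 2.0, 1.54 to 2.45). Id2 had 23.8 CPM in Dendritic cell II and 579 CPM in Dendritic cell I (log2 ratio -4.60, -5.82 to -3.62). Batf3, the factor of type 1 conventional cells, had 1 UMI in Dendritic cell II and 398 in Dendritic cell I, and Zbtb46, the factor common to conventional cells, had 1 and 108. Of the 20 compared genes in the list of dendritic transcription factors, 8 were past the fold higher and 6 lower. Among all genes compared, 21.5% were higher and 11.7% lower.

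Conventional markers were mostly lower, where 11.7% of all genes compared were past the fold lower and 21.5% higher. Of 11 genes common to conventional cells, 8 were past the fold lower, among them 4 MHC class II genes, and 2 were higher (Bcl11a, also used by plasmacytoid cells, and Kmo). Of 14 type 1 genes, 10 were past the fold lower, and 2, Cadm1 and Irf8, were higher. Xcr1, the chemokine receptor of type 1 cells, had 0 UMIs in Dendritic cell II and 485 in Dendritic cell I (at least 18.8-fold lower). Clec9a, a receptor for dead cells, did not divide the classes: it had a UMI in 44.0% of Dendritic cell II and 27.3% of Dendritic cell I cells, and in 0.433% of fibroblasts, and its log2 ratio was 0.42. Of 11 type 2 genes, 4 were lower (Cd209a, Mgl2, Itgam and Tnip3) and 2 higher (Zeb2 and Cd209d). Mgl2, a galactose-binding lectin, had 5 UMIs in Dendritic cell II and 1602 in Dendritic cell I (log2 ratio -5.22, -6.85 to -4.0). Flt3, the receptor whose ligand sustains all dendritic lineages, was measured at 110 CPM in Dendritic cell II and 95 CPM in Dendritic cell I, with an interval on the log2 ratio of -0.32 to 0.71.

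Genes of mature, migrating dendritic cells were low in the class. Of 22 compared, 18 were past the fold lower, and Samsn1, an adaptor protein, was higher. Over all genes 11.7% were lower and 21.5% higher. Ccr7, the receptor that leads cells to lymph nodes, had 1 UMI in Dendritic cell II and 484 in Dendritic cell I, and Fscn1, which bundles actin in dendrites, had 0 and 216 (at least 8.38-fold lower). The chemokines Ccl17 and Ccl22 had 0 UMIs in the class, against 358 and 338 in Dendritic cell I (at least 13.9-fold and 13.1-fold lower). The list median was a log2 ratio of -2.78, or -1.51 with the 11 genes at 0 placed at their bounds. For the type 1 list the corresponding medians were -3.28 and -2.60.

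**Figure D2:**
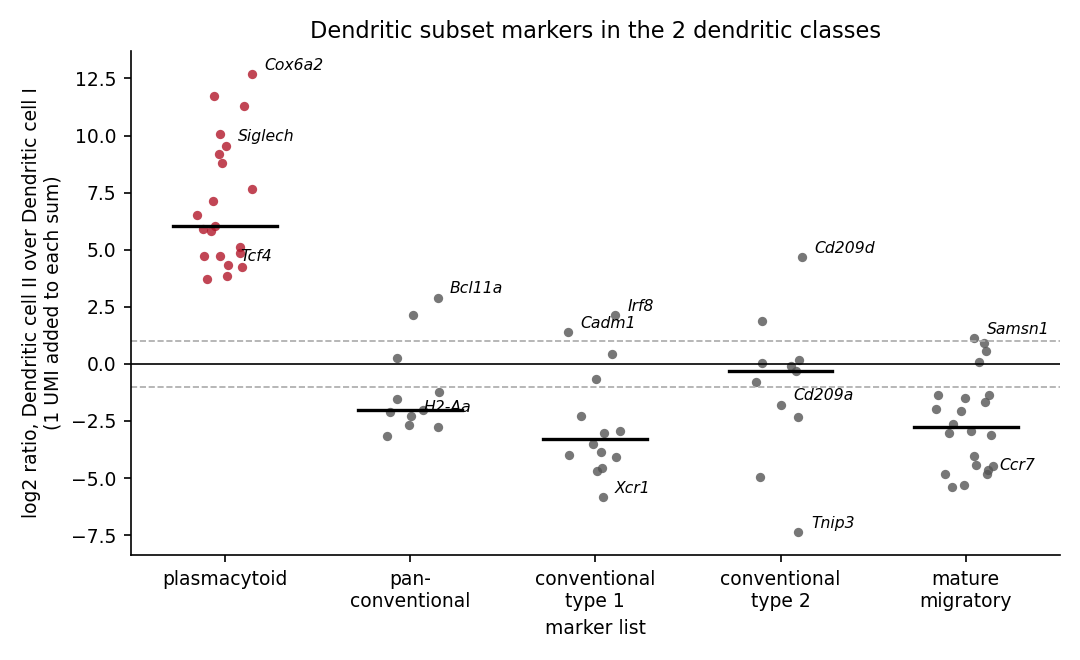
Log2 ratio of Dendritic cell II over Dendritic cell I with 1 UMI added to each sum (y axis) for the genes of each dendritic marker list (x axis), 1 point per gene with at least 20 UMIs over both classes. The plasmacytoid genes lie above 0 with a median of 6.02, and the medians of the type 1 and mature migratory lists are -3.28 and -2.78.

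The 20 genes named as higher by a fixed ranking held 13 members of the plasmacytoid list and 7 others. Iglc3, an immunoglobulin lambda constant segment, had 361 UMIs in 63 Dendritic cell II cells and 2 UMIs in Dendritic cell I (log2 ratio 10.60, 8.73 to 13.65). Slpi, a secreted inhibitor of leukocyte proteases, was higher by 6.77, Lefty1, a secreted antagonist of Nodal signalling, by 5.86, and the surface proteins Ly6c2 and Ly6a by 6.57 and 4.89. Ptprcap, which associates with the phosphatase CD45, was higher by 5.04, and Cd209d, a C-type lectin, by 4.70. Of the 10 named lower genes, those not yet given were Tnip3, which restrains NF-kB signalling and was at least 55.4-fold lower (0 UMIs against 1428), Pak1, Clec4b1, H2-Ob and AA467197, each at 0 UMIs in the class against 389 to 457, Cxcl16 with 1 UMI against 673, and Tnfsf9 with 2 against 970.

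Antigen presentation to helper T cells was at a lower level. Of 14 MHC class II pathway genes, 0 were past the fold higher and 10 lower, and their summed level was 11920 CPM in Dendritic cell II and 54987 CPM in Dendritic cell I. H2-Aa, an MHC class II alpha chain, had 2134 CPM in Dendritic cell II and 10380 CPM in Dendritic cell I (log2 ratio -2.28, -2.39 to -2.18), and Ciita, the master activator of the pathway, had 26.8 and 174 CPM. Of 8 costimulatory genes, 7 were lower, among them Cd86 with 1 UMI against 379. Among 14 MHC class I pathway genes, 1 (the immunoproteasome subunit Psmb10) was higher and 0 lower. The shares over all genes were 21.5% higher and 11.7% lower.

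Sensing, secretion and metabolism gave a mixed picture. Tlr7, the endosomal sensor of single-stranded RNA, had 32 UMIs in 26 Dendritic cell II cells and 1 UMI in Dendritic cell I (log2 ratio 8.10, 5.52 to 13.45). Of 24 interferon response genes, 10 were past the fold higher, among them Ly6e (2000 CPM against 565), and 5 lower, among them Ifitm3 (530 against 1744). Of the 178 Ifitm3 UMIs, 138 lay in 8 young cells described below, and the other 67 cells stood at 146 CPM. Of 22 secretory pathway genes, 8 were higher and 0 lower. The shares over all genes, to be read beside both lists, were 21.5% higher and 11.7% lower. Xbp1, a driver of secretory capacity, was among the higher ones with 348 CPM against 95, and so was Mzb1, an endoplasmic reticulum chaperone of antibody-secreting cells, with 268 CPM against 1.73. Cathepsin L (Ctsl), a lysosomal protease, had 2330 CPM in Dendritic cell II and 30.8 CPM in Dendritic cell I (log2 ratio 6.24, 5.92 to 6.57).

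Of 17 cholesterol synthesis genes, 13 were past the fold higher and 0 lower, where 21.5% of all genes were higher and 11.7% lower. Among the higher ones was Fdps, which makes farnesyl diphosphate, with 190 CPM in Dendritic cell II and 54.1 CPM in Dendritic cell I. Of 20 cell cycle genes, 0 were higher and 15 lower, but 6 of them had 0 UMIs in the class, which holds fewer UMIs in all than Dendritic cell I. The list median was -1.71, or -1.19 with those genes at their bounds, and the bound for Ccnb1 (0 UMIs against 27) was 1.05-fold. Mki67, present in dividing cells, had 1 UMI against 261 (log2 ratio -4.93, -10.23 to -2.43). Chemokine genes were mostly lower (10 of 14), with Ccl3 and Ccl4 higher. Of the 46 Ccl3 UMIs, 41 lay in 7 cells of the largest cluster described below, and the 43 cells outside that cluster stood at 24.4 CPM, beside 47.1 CPM in Dendritic cell I. Ccl4, an inflammatory chemokine, had 4396 CPM in Dendritic cell II and 567 CPM in Dendritic cell I (log2 ratio 2.96, 2.85 to 3.06), although basophils had 41450 CPM, so free RNA in the droplets is a possible source whose part was not tested. A total of 40 Dendritic cell II cells with at least 10 Ccl4 UMIs held 1361 of the 1477.

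Scaling changed some of these counts. With trimmed-mean (TMM) scaling, which moved every log2 ratio by -0.41, 958 genes were past the fold higher and 1394 lower over all genes, against 1745 and 947 with scaling to total UMIs. The plasmacytoid list kept 21 of 21 higher (median 5.61), MHC class II had 12 of 14 lower and the type 1 list 11 of 14 lower. Samsn1 and Cadm1 were then under the fold. Cholesterol synthesis had 9 of 17 higher, the secretory list 4 of 22, and the interferon list 7 higher and 7 lower. The MHC class I list had 0 higher and 4 lower.

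Markers of other lineages were checked in the same cells. All 4 compared B cell genes (Cd79b, Ighm, Iglc2 and Iglc3) were past the fold higher than in Dendritic cell I, while Ms4a1 had 0 UMIs against 8. Of the 12 T cell markers 6 were at 0 in the class, and the 2 compared genes, Cd8a (32 UMIs against 17) and Cd8b1 (92 against 3), were higher. Of 7 monocyte genes 5 were higher, among them Ly6c2 and Ace, and 1 lower. All 21 Ace UMIs lay in 7 young cells of a small cluster described below. Of 10 macrophage genes 1 was higher (Apoe) and 4 lower. The same cluster of 8 cells held 92 of the 120 Apoe UMIs, and the other 67 cells stood at 102 CPM, beside 65.8 CPM in Dendritic cell I. Of the plasma cell list 3 of 4 compared genes were higher, of the endothelium list 2 of 3, and of the neutrophil and Langerhans lists 2 of 2 each. In these lists 0 genes were past the fold lower. The neutrophil list held 42 UMIs in young cells, 1 in metformin and 1 in aged cells. Of 4 innate lymphoid genes 1 was higher and 1 lower, and 0 of 2 natural killer genes were past the fold. For all genes compared, the shares were 21.5% higher and 11.7% lower. The fibroblast list summed to 26.8 CPM in Dendritic cell II and 80.8 CPM in Dendritic cell I, and the red cell and surface epithelium lists were at 0 UMIs in the class.

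Dendritic cell II was rare in every condition. It made up 22 of 3754 metformin cells (0.586%, 0.368 to 0.886, Clopper-Pearson), 9 of 2979 aged cells (0.302%, 0.138 to 0.573) and 44 of 7620 young cells (0.577%, 0.420 to 0.774). The ratio of shares was 1.94 for metformin over aged (0.858 to 4.79), 0.523 for aged over young (0.225 to 1.09) and 1.01 for metformin over young (0.579 to 1.73), so each interval held 1. The pools did not agree on direction: the ratio of metformin over aged was 4.68, 2.50 and 0.865 in pools A, B and C, that of aged over young 0.157, 1.33 and 0.561, and that of metformin over young 0.733, 3.33 and 0.485. Without pool C the ratio of metformin over aged was 2.96 (1.04 to 10.3), and without pool B that of aged over young was 0.349 (0.107 to 0.892).

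The larger dendritic class was counted more firmly. Dendritic cell I made up 2.16% of metformin, 1.81% of aged and 3.95% of young cells, with ratios of 0.546 for metformin over young (0.422 to 0.700) and 0.459 for aged over young (0.337 to 0.615). Of the cells in either dendritic class, Dendritic cell II was 21.4% in metformin (13.9 to 30.5), 14.3% in aged (6.75 to 25.4) and 12.8% in young ovaries (9.42 to 16.7). The sort gate and the depth of the other cells, which differed between conditions, can set such shares, and their part was not tested.

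**Figure D3:**
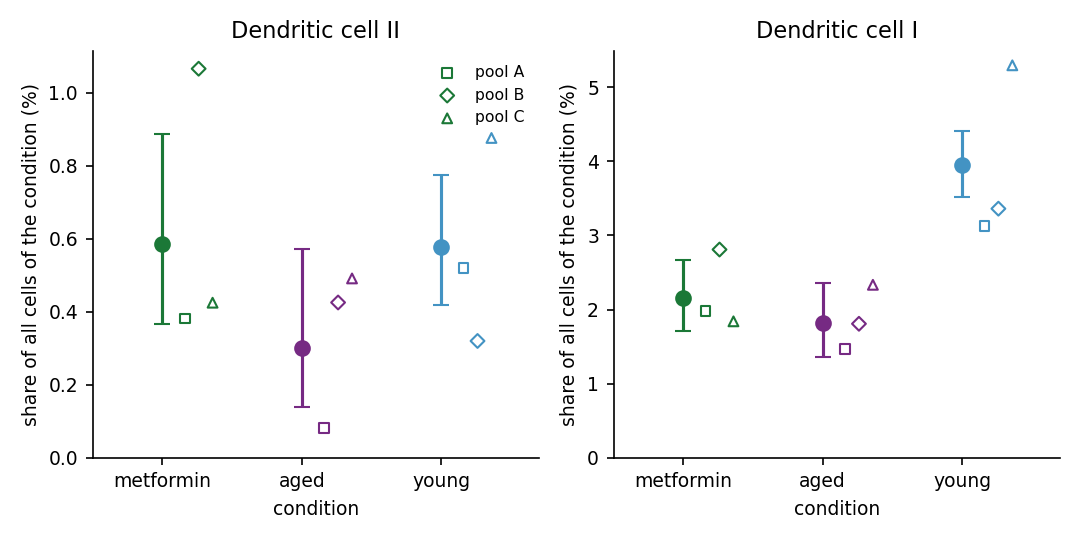
Share of all cells of a condition in percent (y axis) for Dendritic cell II and Dendritic cell I in metformin, aged and young ovaries (x axis), with each condition's share, its exact 95% interval and the 3 pools as separate points. The Dendritic cell II intervals overlap between all 3 conditions, at 0.586%, 0.302% and 0.577%.

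The plasmacytoid program was present in every condition. The list summed to 22766 CPM in metformin, 16850 CPM in aged and 20450 CPM in young Dendritic cell II cells, and to 446, 385 and 345 CPM in Dendritic cell I of the same conditions. For metformin over aged, 4 of 20 compared members were past the fold higher (Klk1b27, Ly6d, Spib and Smim5) and 0 lower, where 4.66% of 988 genes were higher and 5.87% lower. For aged over young, 0 of 21 were higher and 2 lower (Ly6d and Spib), where 7.68% of 1928 genes were higher and 6.12% lower. For metformin over young, 1 of 21 was higher (Klk1b27) and 0 lower, where 3.58% of 2317 genes were higher and 5.35% lower. The aged condition rested on 9 cells, the metformin on 22 and the young on 44. The metformin over aged and aged over young ratios share the aged cells, and the other pairs share a condition likewise.

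Ly6d held the most UMIs of the members past the fold, with 2861 CPM in metformin cells, 813 CPM in aged cells and 2839 CPM in young cells (258, 30 and 593 UMIs). The log2 ratio was 1.82 for metformin over aged (1.27 to 2.41) and -1.80 for aged over young (-2.39 to -1.28). By pool, metformin stood at 457, 3594 and 3408 CPM, aged at 1311, 228 and 1349 CPM and young at 2596, 3655 and 2634 CPM. Metformin and aged pools overlapped, through metformin pool A, and all aged pools lay below all young pools. Aged pool A held 1 cell and pools B and C 4 each. Free RNA from B cells, where Ly6d was at a similar level, was not tested. Spib had 21 UMIs in metformin, 2 in aged and 37 in young cells.

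Core identity genes were nearer to each other. Siglech had 2861 CPM in metformin, 2086 in aged and 2590 in young cells, a log2 ratio of 0.14 for metformin over young (-0.08 to 0.36). Cox6a2 had 2218, 1598 and 2484 CPM in the same order, and Tcf4 1663, 2059 and 1192. For Tcf4 the log2 ratio was 0.79 for aged over young (0.40 to 1.16), short of the fold.

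Over all genes, 104 of 988 (10.5%) were past the fold for metformin over aged, with 46 higher and 58 lower. For aged over young it was 266 of 1928 (13.8%), with 148 higher and 118 lower, and for metformin over young 207 of 2317 (8.93%), with 83 higher and 124 lower. In simulated counts at the same depths, 14.4%, 13.1% and 6.24% of genes set as unchanged were past the fold, in the same order. The same simulations held 183, 200 and 199 genes set as changed, which can shift the unchanged genes through scaling to the total. The simulated shares therefore do not measure counting error alone. How many genes counting error alone placed past the fold was not tested. TMM scaling moved the log2 ratios of these comparisons by 0.26, -0.35 and -0.11, and the counts higher and lower became 79 and 33, 62 and 241, and 58 and 155.

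Genes of the stress and immediate early response, which many cells switch on during dissociation, were in part lower in metformin cells. Of 14 compared for metformin over aged, 7 were past the fold lower (Fos, Jun, Junb, Hspa8, Klf2, Klf4 and Klf6) and 0 higher. Over all genes of that comparison 5.87% were lower and 4.66% higher. The list had a median log2 ratio of -1.05 beside -0.07 over all genes. Of 21 compared for metformin over young, 9 were lower and 0 higher, and 4 of 18 were lower without the 8 young cells of the Lyz2 cluster described below. The median for metformin over young with all cells was -0.76, beside 0.04. Over all genes of that comparison 5.35% were lower and 3.58% higher, and 3.79% were lower without those 8 cells. For aged over young, 2 of 21 were higher and 6 lower, where 7.68% of all genes were higher and 6.12% lower. Nr4a1 and Atf3 were among the lower ones. Of the young Nr4a1 UMIs, 37 lay in the 8 cells of the Lyz2 cluster and 6 in the other 36 young cells. The cluster also held 37 Atf3 UMIs, against 17 in the other 67 cells of the class. With TMM scaling the metformin over aged count was 5 lower and 1 higher, and the metformin over young count 10 lower.

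The 30 genes summed to 6820 CPM in metformin, 13111 CPM in aged and 12968 CPM in young cells. By pool the metformin sums were 7210, 7230 and 5652 CPM, the aged sums 3932, 15225 and 12980 CPM, and the young sums 14040, 11646 and 12926 CPM. The 3 metformin pools lay below all young pools, while aged pool A, with its 1 cell, lay below the metformin pools. Per cell, the list took a median of 0.655% of UMIs in metformin (0.304 to 1.18), 1.34% in aged (0.393 to 2.05) and 1.13% in young cells (0.416 to 2.71), so cells of all conditions overlapped.

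Jun, a subunit of the AP-1 factor, had 122 CPM in metformin, 569 in aged and 886 in young cells (11, 21 and 185 UMIs). Its log2 ratio was -2.86 for metformin over young (-3.89 to -1.99) and -2.22 for metformin over aged (-3.42 to -1.10), and 1 aged cell held 61.9% of the aged UMIs. Its pools stood at 102, 106 and 173 CPM in metformin and at 1264, 409 and 875 CPM in young cells, without overlap. Fos, its AP-1 partner, had 887, 2005 and 2116 CPM in metformin, aged and young cells, a log2 ratio of -1.18 for metformin over aged (-1.65 to -0.70). In Dendritic cell I the Jun levels were 519, 615 and 684 CPM in the same order.

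The stress list was set beside other classes to see how general its level was. In Dendritic cell I it came to 17904, 19380 and 20995 CPM in metformin, aged and young cells. The ratio of metformin over young was 0.526 in Dendritic cell II, 0.853 in Dendritic cell I, 0.552 in B cell I and 1.10 over all other cells together. The ratio of metformin over aged was 0.520, 0.924, 0.578 and 0.790 in those groups. The conditions were dissociated as separate suspensions, so handling and treatment cannot be told apart.

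**Figure D4:**
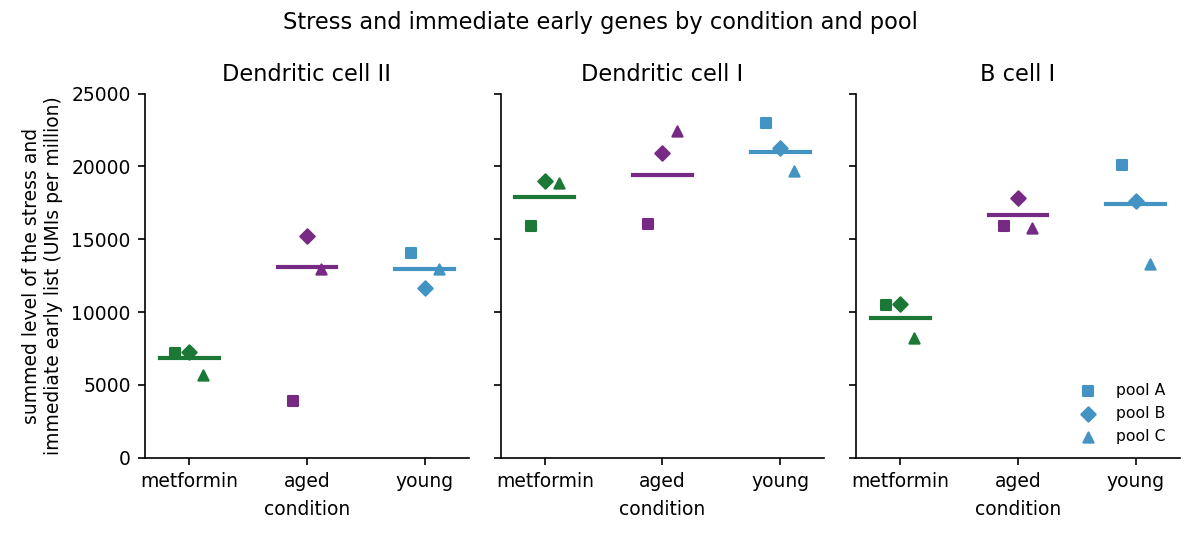
Summed level of the 30 stress and immediate early genes in CPM (y axis) by condition (x axis) in 3 classes, with the condition's value and the 3 pools as points. In Dendritic cell II the metformin value was 6820, against 13111 in aged and 12968 in young cells.

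Metformin and young cells, which numbered 10 or more, were also ranked gene by gene; this comparison was added after the data were seen. Tifa, an adaptor of innate signalling, had 233 CPM in metformin and 57.4 CPM in young cells (log2 ratio 2.02, 0.93 to 3.18), and 217 CPM in aged cells. Tifa and Zc3h12c, also named, were leading genes of a cluster described below that held 11 of 22 metformin, 2 of 9 aged and 5 of 44 young cells. Klrd1 (CD94), a lectin receptor chain of natural killer cells, had 865 and 359 CPM (log2 ratio 1.27, 0.79 to 1.75), and 650 CPM in aged cells. Its pools were 1066, 909 and 604 CPM in metformin and 410, 341 and 339 CPM in young cells, without overlap. In Dendritic cell I the Klrd1 pools did not overlap either, at 429, 477 and 466 CPM in metformin and 390, 260 and 252 CPM in young cells. Zeb2, a transcriptional repressor used in plasmacytoid development, had 521 and 235 CPM, and 867 CPM in aged cells. Its Dendritic cell I pools also lay apart, at 128, 218 and 186 CPM in metformin and 105, 88.3 and 85.9 CPM in young cells. Those of Tifa overlapped, at 34.8, 72.6 and 64.5 CPM in metformin and 53.3, 73.8 and 48.9 CPM in young cells. The other named higher genes were Klk1b27, Sdf2l1, Cdip1, Zc3h12c, Tmem192, Pitpna, Chd9, Clec9a and Cfp.

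Of the genes lower in metformin than in young cells, Ctse, an aspartic protease of the endosome, had 1 UMI in 22 metformin cells, 0 UMIs in 9 aged cells and 44 UMIs spread over 29 of 44 young cells. The log2 ratio for metformin over young was -4.25 (-9.58 to -1.69). The young pools were even, at 205, 227 and 207 CPM. Ctse had the same order in Dendritic cell I at a lower level. There it stood at 20.9, 28.9 and 19.6 CPM in the young pools, 0 CPM in each metformin pool and 8.12, 0 and 0 CPM in the aged pools. Cd8a, a coreceptor chain of T cells also found on dendritic cells, had 0 UMIs in metformin cells, 5 UMIs in aged cells and 27 UMIs in 13 young cells, and was at least 3.89-fold lower in metformin than in young cells. Klf6, a stress-responsive factor, had 66.5 CPM in metformin and 416 CPM in young cells. Of 8 cholesterol synthesis genes compared, 4 were higher in metformin cells (Hmgcs1, Idi1, Fdps and Insig1), where 3.58% of 2317 genes were higher. Fewer of them were higher without the Lyz2 cluster described below. Counts were low, with Hmgcs1 at 2, 4 and 6 UMIs in metformin pools A, B and C. Fdps had 344 CPM in metformin, 81.3 CPM in aged and 144 CPM in young cells.

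Most of the other named lower genes belonged to 1 small set of young cells. Clustering the 75 cells alone gave 4 clusters, and the smallest held 8 cells, all of them young, with 2, 2 and 4 in pools A, B and C. Its leading genes were myeloid: Lyz2, the lysozyme of macrophages and granulocytes, had 201 UMIs in the 8 cells (10 to 44 each), and 6 UMIs in the other 36 young cells, at most 1 each. Il1b, an inflammatory cytokine, had 75 UMIs in the 8 cells and 1 in the 36, and Cebpb, a myeloid factor, 126 and 11. Apoc2, a lipoprotein component, had 30 UMIs in the cluster and 0 in the 67 other cells of the class (at least 44.3-fold higher). Ace, Treml4 and Csf1r, found on patrolling monocytes, had UMIs in 7, 5 and 7 of the 8 cells and in 0 of the other 36 young cells.

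The same 8 cells also held plasmacytoid genes. Siglech was present at 10 to 23 UMIs in each, and scaled to depth it stood at 2086 CPM, beside 2802 CPM in the other young cells. Cox6a2 had a UMI in 8 of 8, at 1407 CPM beside 2938 CPM. Ly6d, Ccr9 and Klk1 each had a UMI in 6 of the 8, at 1569, 809 and 695 CPM, beside 3373, 1013 and 1238 CPM in the other young cells. All 5 genes were thus lower per UMI in the 8 cells. The macrophage complement genes were near 0, with 0 UMIs of C1qa and C1qc and 1 UMI of C1qb, and Mrc1 had 0 UMIs. Their median depth was 7608.5 UMIs per cell, above the class median of 4185. Whether each barcode held 1 cell or 2 was not tested, and the deposited table marked no doublet.

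**Figure D5:**
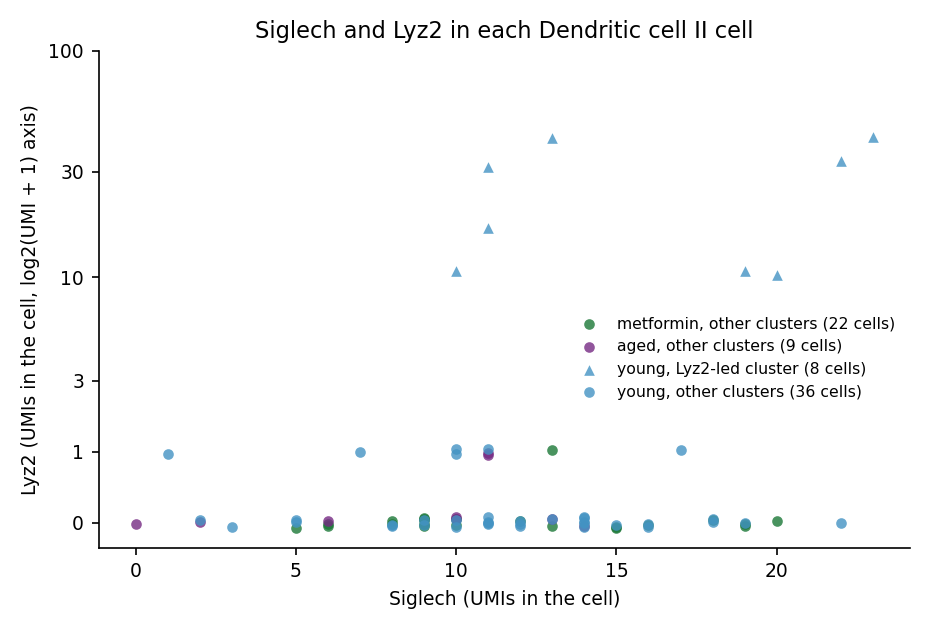
UMIs of Siglech (x axis) and of Lyz2 (y axis, log2(UMI + 1) scale) in each of the 75 Dendritic cell II cells, 1 point per cell, by condition. The 8 young cells with 10 to 44 Lyz2 UMIs have 10 to 23 Siglech UMIs.

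Without the 8 cells, 116 of 1849 genes (6.27%) were past the fold for metformin over young, 2.49% higher and 3.79% lower. For aged over young it was 147 of 1435 (10.2%), 5.37% higher and 4.88% lower. Of the genes named as lower in metformin cells, Lyz2, Il1b, Lst1, Cebpb, Apoc2, Ifitm2 and G0s2 then had under 20 UMIs over both conditions, and Apoe had a log2 ratio of -0.29. Jun (-2.90), Ctse (-4.42), Klf6 (-2.44) and Cd8a (at least 5.11-fold lower) were still past the fold, as were Tifa (1.64), Klrd1 (1.18) and Zeb2 (1.31) on the higher side. Klk1b27 then had a log2 ratio of 0.97 for metformin over young, under the fold, so that 0 of the plasmacytoid genes remained past it. In the stress list the 4 lower genes were Fos, Jun, Klf2 and Klf6, and 2 of 8 cholesterol genes were higher.

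The remaining cells formed 3 clusters. The cluster of 32 cells (8 metformin, 4 aged and 20 young) was led by Ccl3 and held Ccl4 at 7493 CPM, against 2422 CPM in the other cells of the class. The cluster of 18 cells (11 metformin, 2 aged and 5 young) was led by Zc3h12c, with 11 of its cells in pool B. The cluster of 17 cells (3 metformin, 3 aged and 11 young) was led by Vim, an intermediate filament, and Lgals3, a galectin, at 859 and 553 CPM against 135 and 97.3 CPM. These leading genes defined the clusters and were not tested.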

How the data were processed

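UMI counts per gene and cell, the percent of mitochondrial UMIs per cell, tags, conditions and class names were deposited by the authors; per the submitters' processing notes, UMIs were counted with Cell Ranger 3.0.2 on GRCm38 (mm10). The sources used here do not say how tags were called, cells filtered or classes made. No cell was marked in the authors' doublet column, and no doublet caller was run. UMIs were summed per class, condition and pool with Python 3.11.15, numpy 2.4.6, pandas 2.3.3 and scipy 1.17.1, scaled to the total, and compared as log2 ratios with exact conditional intervals. Clustering used scanpy 1.11.5 and leidenalg 0.10.2 (1000 variable genes, 10 components, 10 neighbours, resolution 0.5). TMM factors came from edgeR 4.0.16 in R 4.3.3, as an alternative only; figures were drawn with matplotlib 3.10.9.

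Genes named between classes were the 20 highest and 10 lowest log2 ratios with at least 100 UMIs and, in the higher class, a UMI in at least 10% of cells. Between conditions of at least 10 cells they were the 12 highest and 12 lowest by the interval bound nearest 0, past the fold and with at least 20 UMIs. Mitochondrial, ribosomal and haemoglobin genes, Malat1, gene models and genes highest in a non-immune class were left out; marker list genes and list members past the fold could be named besides. The members and the 22 marker and 25 function lists were chosen with earlier results of these data known. Of 699 distinct list genes, 7 were not analysed here. The metformin over young comparison and the alternative without the Lyz2 cluster were chosen after seeing the data. The ratio and interval steps were tested on simulated data. Other conditions of the study were not analysed here. Single values of some list genes are not reported here.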

Additional observations from a re-analysis of the deposited data

How the results depend on the processing

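Counts of genes past the fold moved with the UMI minimum, with thinning and with the cells left out. For metformin over aged the count of 104 became 16 with a minimum of 50 UMIs, 2662 with no minimum, 15 with cells thinned to 1000 UMIs and 20 without cells that held markers of another class, and 50 to 72 with 1 pool left out. For aged over young the count of 266 became 48, 4215, 34 and 35 under those settings, 462 with 5 UMIs added, 147 without the Lyz2 cluster, and 129 to 251 with 1 pool left out. For metformin over young the count of 207 became 34, 2890, 38 and 11, 116 without the Lyz2 cluster, and 104 to 175 with 1 pool left out. Leaving out cells with another class's markers took away 67 of the 75 cells. The B cell list marked 61 cells, and its members Ighm and Iglc3 were higher in the class as a whole than in Dendritic cell I. This left 2 metformin, 2 aged and 4 young cells, so the counts under this setting rest on few cells.

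Members of the function lists past the fold numbered 26 for metformin over aged (6 with a minimum of 50 UMIs, 16 to 26 with 1 pool left out), 42 for aged over young (22, 25 without the Lyz2 cluster, 27 to 38) and 35 for metformin over young (12, 14 and 22 to 32). Over all genes the shares past the fold were 10.5%, 13.8% and 8.93% in that order. The member counts show how far the settings moved them and are not read as a result about the lists. Between the classes the count of 2692 became 1583 with a minimum of 50 UMIs, 6906 with none, 988 after thinning, 1215 within metformin cells and 787 within aged cells. The plasmacytoid median of 6.02 ranged from 5.86 to 6.46 with 1 pool left out. The type 1 median of -3.28 was -1.85 after thinning and -3.45 to -2.58 with 1 pool left out, the type 2 median of -0.31 was -0.20 after thinning and -0.12, -0.59 and -0.53 without pools A, B and C, and the mature migratory median ranged from -2.54 to -2.47. The ratio of shares of aged over young was 1.12 with dendritic cells as the denominator, and that of metformin over young ranged from 0.575 to 1.62 with 1 pool left out. No named gene changed the sign of its log2 ratio under the settings applied to it. The balance of higher and lower counts did turn with TMM scaling, except for metformin over young. The aged over young ratio of shares also passed 1, from 0.523 over all cells. The causes of these shifts, beyond fewer cells or genes entering, were not tested.

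No paired analysis was possible because no result comes from a test: the pools are technical repeats of 1 suspension per condition. Values within each pool are given in its place. With 1 suspension per condition, 75 cells and a median of 4185 UMIs each, a gene under 20 UMIs could not be compared, and differences between mice are not measured.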
